A study of Mus musculus with 4 samples.

Results

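The genes described here encode, from nuclear DNA, the subunits of the mitochondrial respiratory chain and a few of its assembly factors. They were chosen by name: all genes of the deposited expression table whose symbol starts with Nduf, Uqcr, Atp5, Cox4, Cox5, Cox6, Cox7 or Cox8, together with Sdha, Sdhb, Sdhc and Sdhd. This gave 85 of the 13353 genes in the table. Of these, 43 belong to complex I (35 subunits and 8 assembly factors), 4 to complex II, 8 to complex III, 13 to complex IV and 17 to complex V, with Ndufa4 placed in complex IV, where the protein is now assigned. The rule uses symbols alone.

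Complexes I and II feed electrons from NADH and succinate into ubiquinone, complex III passes them to cytochrome c, and complex IV hands them to oxygen. Complexes I, III and IV pump protons as they do so, and complex V, the ATP synthase, uses the gradient to make ATP. Each complex except complex II also contains subunits encoded by mitochondrial DNA, so nuclear transcripts are only a part of what a cell needs to build the chain. Neural stem cells of the adult hippocampus are known to lean on glycolysis and fatty acid oxidation, and their neuronal progeny to rely increasingly on oxidative phosphorylation.

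Nuclei were taken from the dentate gyrus of male and female mice with a tamoxifen-inducible Cre (CreERT2) and the reporter CAGfloxStop-Sun1/sfGFP that were 6 to 8 weeks old and had received tamoxifen. Recombination in these animals leaves a green nuclear envelope tag in radial glia-like cells and all of their later progeny. All groups share this genotype and treatment and differ in the time since induction, which was 1, 2, 4 or 8 weeks (w1, w2, w4 and w8). For each time 4 left dentate gyri were pooled into 1 library, tagged nuclei were sorted, and unique molecular identifiers (UMIs) were counted over exons and introns. Time points were handled in pairs on each day and the pairs are not stated. Week, age at collection, pool and day therefore cannot be told apart, and no test between weeks was made.

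The deposited annotation assigns 14367 nuclei to 13 clusters. A total of 10 lie on or beside the neuronal path: astrocytes (Astro), radial glia-like cells (RGL), neural progenitor cells (NPC), neuroblasts (NB1, NB2), immature granule cells (GCimm1, GCimm2), young granule cells (GCyoung) and mature granule cells (GCmat1, GCmat2). The others are oligodendrocyte precursor cells (OPC), oligodendrocytes (Oligo) and a cluster labelled pericytes (Peri). Library depth lay between 13227971 and 28595331 UMIs, and 1 to 6 cell barcodes recurred between any pair of libraries. The marker list of each named class summed highest in a cluster of that name. In Peri the 5 pericyte markers summed to 109.5 CPM (UMIs per 1000000 UMIs of the same nuclei), with 31 UMIs of Pdgfrb, 2 of Abcc9, 1 of Kcnj8 and 0 of Rgs5 and Higd1b. The 6 markers of vascular leptomeningeal cells were all highest there too and summed to 5876 CPM, so Peri is used below only as the name of that cluster.

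The 85 genes together took 216234 UMIs, which was 0.235% of all UMIs of these nuclei. The median gene had 1810 UMIs and the extremes were 149 and 21409. Only 10 genes were detected in over 25% of nuclei and 9 were detected in under 5%. Nuclear RNA therefore gave a thin reading of each gene, and single genes are described below from UMIs summed over the nuclei of a cluster in a library. Complex I subunits held 33.3% of these UMIs, complex V 29.6%, complex IV 16.4%, the complex I assembly factors 7.71%, complex III 7.46% and complex II 5.49%.

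As a mean over libraries, the summed level of the 85 genes was highest in Astro and lowest in mature granule cells. Levels are CPM of sums of at least 10 nuclei, and clusters are present in unlike sets of libraries. Astro reached 3462 ± 550 CPM (SD, n = 3 libraries). In the order of the path, RGL had 2707 ± 545 CPM (n = 4), NPC 2981 ± 490 CPM (n = 3), NB1 3104 ± 480 CPM (n = 3) and NB2 2943 ± 495 CPM (n = 3). From neuroblasts on, the mean was lower at most successive stages. It was 2728 ± 335 CPM in GCimm1 (n = 3), 2318 ± 378 CPM in GCimm2 (n = 3), 2077 ± 310 CPM in GCyoung (n = 2), 1976 ± 220 CPM in GCmat1 (n = 3) and 1981 ± 284 CPM in GCmat2 (n = 2). Single libraries did not all keep this order. In w4 NB1 had 3464 CPM and Astro 3381. In w8 Oligo had 1528 CPM and OPC 1626, below GCmat1 with 1754. On the TMM scale, described below, the mean was 2267 CPM in NPC, below GCmat1 with 2528.

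**Figure D1:**
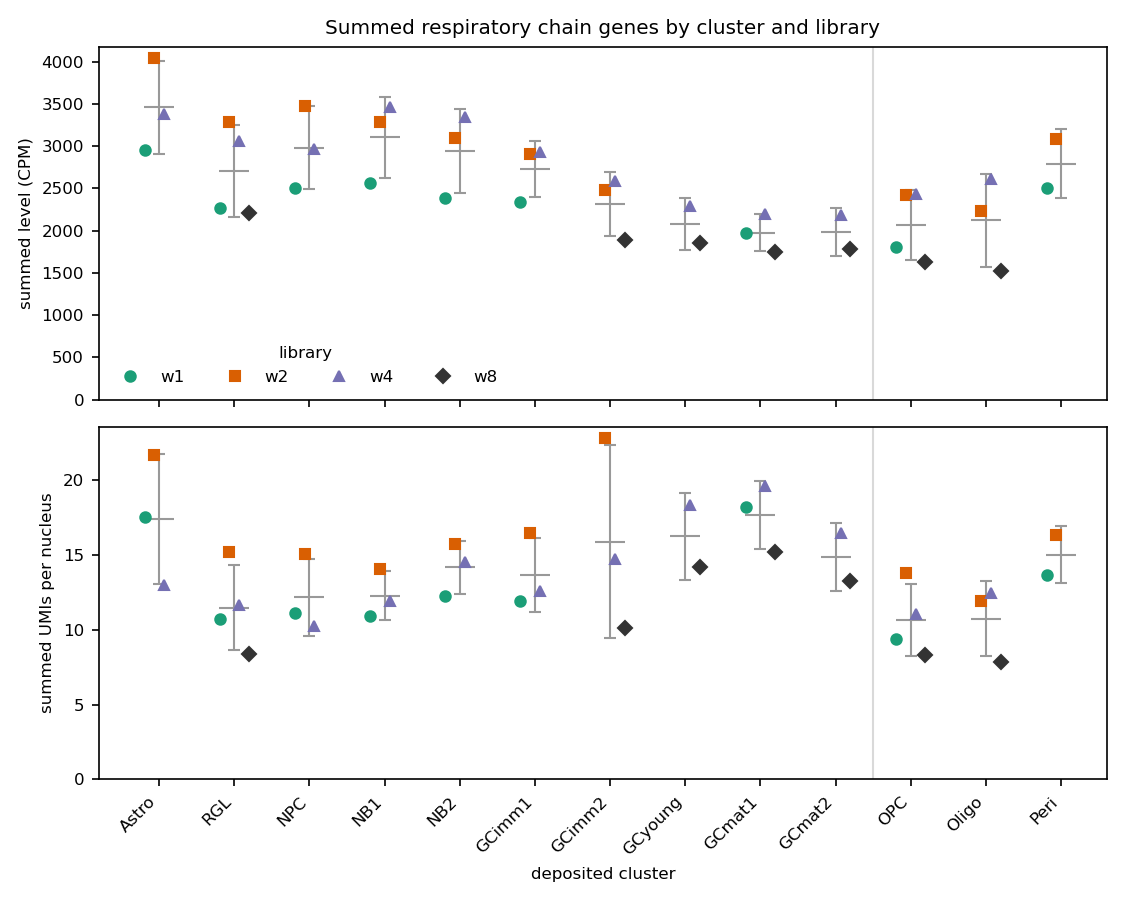
Summed level of the 85 nuclear-encoded respiratory chain genes in each deposited cluster, as CPM in the upper panel and as UMIs per nucleus in the lower panel. Points are single libraries (w1, w2, w4, w8) with at least 10 nuclei, bars are the mean and SD over libraries, and the vertical line parts the neuronal path and astrocytes from OPC, Oligo and Peri. As means in CPM, mature granule cells lie lowest on the neuronal path, at 1754 to 2194 in single libraries of GCmat1. Per nucleus GCmat1 is among the highest, at 15.2 to 19.6 UMIs, while GCmat2 has 16.45 in w4 and 13.2 in w8.

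Much of the spread was between libraries and had the same order in most clusters. The w8 library was lowest in 7 of the 7 clusters that held it with at least 10 nuclei, and w2 lay above w1 in 8 of 8. In RGL, the only neuronal path cluster with at least 10 nuclei in all libraries, the summed level in CPM was 2272 (w1), 3285 (w2), 3058 (w4) and 2212 (w8). The share of UMIs from mitochondrial genes was also lowest in w8, where it was 0.00244% to 0.00478% of UMIs in the clusters, against 0.0103% to 0.0489% in the other libraries. Its part in the order of the libraries was not tested. Comparisons between clusters are therefore given within libraries below.

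Within libraries GCimm1 and NB2 had a lower summed CPM than NB1 and more UMIs of the 85 genes per nucleus. The CPM ratio of GCimm1 to NB1 was 0.915 in w1 (95% counting interval 0.868 to 0.964), 0.884 in w2 (0.866 to 0.902) and 0.848 in w4 (0.8003 to 0.898). That of NB2 to NB1 was 0.934, 0.941 and 0.965, with an interval in w4 that includes 1 (0.843 to 1.10). Per nucleus the ratios to NB1 in w1, w2 and w4 were 1.09, 1.17 and 1.06 for GCimm1 and 1.12, 1.12 and 1.22 for NB2. On the TMM scale those of GCimm1 were 0.946, 0.976 and 0.959. In CPM the libraries did not share a direction when NPC was compared with RGL or with NB1. On the TMM scale they did, with NPC to RGL at 0.906, 0.865 and 0.760 and NB1 to NPC at 1.19, 1.12 and 1.43.

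Within libraries, the fall in CPM from neuroblasts to mature granule cells was present in both libraries that held at least 10 nuclei of NB1 and of GCmat1. The ratio of GCmat1 to NB1 was 0.773 in w1 (95% counting interval 0.689 to 0.865, with 17 GCmat1 nuclei) and 0.633 in w4 (0.5998 to 0.669). The same nuclei gave the opposite order per nucleus, as the total UMIs per nucleus were higher in GCmat1 in both libraries. The ratio of summed UMIs per nucleus was 1.66 in w1 and 1.65 in w4. After scaling with TMM factors, which assume that most genes do not differ, the ratios were 0.860 and 0.976. The summed respiratory chain transcripts thus made up a smaller share of the UMIs of a mature granule nucleus while their absolute number per nucleus was higher, and relative to the bulk of genes they differed little in w4.

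In plain CPM most complexes were lower in GCmat1 than in NB1 within both w1 and w4. Complex IV went from 415 to 263 CPM in w1 and from 683 to 354 CPM in w4. Complex V went from 800.1 to 672 CPM in w1 and from 1013 to 642 CPM in w4. Complex I subunits went from 821 to 596 CPM in w1 and from 1064 to 745 CPM in w4, and the assembly factors from 200.3 to 147 CPM and from 215 to 152 CPM. Complex II, the only complex that also works in the tricarboxylic acid cycle, went from 137 to 115 CPM in w1 and from 173 to 125 CPM in w4. Complex III was level in w1, at 186 CPM in both clusters, and went from 316 to 177 CPM in w4. The TMM factors were 1.04 for NB1 and 0.939 for GCmat1 in w1, and 1.12 and 0.727 in w4. Divided by these, complex I subunits, assembly factors and complex II lie above NB1 in w4, and complexes III, IV and V below. In w1 all but complex III stay below NB1. In CPM the complexes did not share 1 order of clusters. Complex V was lower in NPC than in NB1 in w1 (605 and 800.1 CPM) and in w4 (564 and 1013 CPM) but not in w2 (918 and 907 CPM), while complex IV was lower in NPC only in w2 (622 and 628 CPM).

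Single genes were tested with edgeR between clusters, in a fit over 38 sums with library as a term and TMM scaling. Of the 85 genes 78 had enough counts, and Cox6b2, Cox7b2, Ndufb8, Ndufaf3, Ndufaf8, Ndufs6 and Ndufs8 did not. A call needs a change of at least 1.5-fold and a p, adjusted after Benjamini-Hochberg over all 11548 genes tested, of no more than 0.05. The clusters had been drawn by the study from the same nuclei, so a cluster difference is a description of those groups. Few respiratory chain genes were called at any step. With edgeR on the TMM scale the share called stayed below that of all genes in each comparison.

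From Astro to RGL 0 genes rose and 4 fell, where 11.0% of all genes were called. From RGL to NPC 2 rose and 5 fell (31.6% of all genes). From NPC to NB1 4 rose and 2 fell (31.4% of all genes). The comparison of NB1 with NB2 gave 0 calls (3.07% of all genes), as did NB1 with GCimm1 (13.2%), GCimm1 with GCimm2 (9.89%), GCimm2 with GCyoung (19.6%) and GCyoung with GCmat1 (4.23%). In these 5 comparisons edgeR gave 0, 1, 1, 4 and 1 genes at an unadjusted p under 0.05 and DESeq2 called 0 in each. Of all 11548 genes, 1253, 2762, 2377, 3513 and 1328 had an unadjusted edgeR p under 0.05. DESeq2 called 169, 1094, 735, 1662 and 221 of them. From GCmat1 to GCmat2 0 rose and 1 fell (7.91% of all genes). Over the whole neuronal stretch from NB1 to GCmat1 3 rose and 6 fell (42.5% of all genes), and from OPC to Oligo 0 rose and 1 fell (20.0%).

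Between NB1 and GCmat1 the low counts went with small changes, and the error was as wide as for all genes. From NB1 to GCimm1 0 of the 78 genes were past 1.5-fold, the largest change being 0.57 on the log2 scale, against 21.5% of all genes. The median standard error was 0.22 for these genes and 0.22 for all genes. From GCimm1 to GCimm2 and from GCyoung to GCmat1 again 0 of 78 passed 1.5-fold, where 20.0% and 15.4% of all genes did. Over NB1 to GCmat1 15 of 78 (19.2%) passed, against 51.6% of all genes. Elsewhere few calls stood beside larger changes and errors: 29 of 78 genes (37.2%, against 49.7% of all genes) were past 1.5-fold from Astro to RGL, with a median standard error of 0.50, and 44 of 78 (56.4%, against 66.2%) from OPC to Oligo, with 0.87. From NB1 to GCmat1 the median log2 change was -0.05 for the respiratory chain genes and -0.05 for all genes. From Astro to RGL the median was -0.20 for these genes and 0.21 for all genes, and from NPC to NB1 it was 0.16 and 0.05.

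The scaling set the size of the change over the neuronal stretch. With library totals in place of TMM factors, the median change of all genes from NB1 to GCmat1 was -0.61 and that of the respiratory chain genes -0.64. With that scaling 0 genes rose and 38 fell, where 57.3% of all genes were called. For RGL to NPC it gave 3 higher and 1 lower (34.6% of all genes called), for NPC to NB1 1 higher and 4 lower (32.8%), and for OPC to Oligo 2 higher and 1 lower (19.2%), with medians of all genes at 0.24, -0.18 and -0.21. The median of the respiratory chain genes turned there from -0.19 to 0.10, from 0.16 to -0.081 and from -0.23 to 0.0028. From Astro to RGL DESeq2 called 11 of 78 genes, all lower, a larger share than among all genes (10.2%). It called 2 higher and 2 lower from RGL to NPC (28.9%) and 1 higher and 2 lower from NPC to NB1 (28.8%). From NB1 to GCmat1 it called 1 higher and 4 lower (38.7%), and from OPC to Oligo 2 higher (18.2%). Directions below are those of the TMM scale, beside plain CPM per library.

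**Figure D2:**
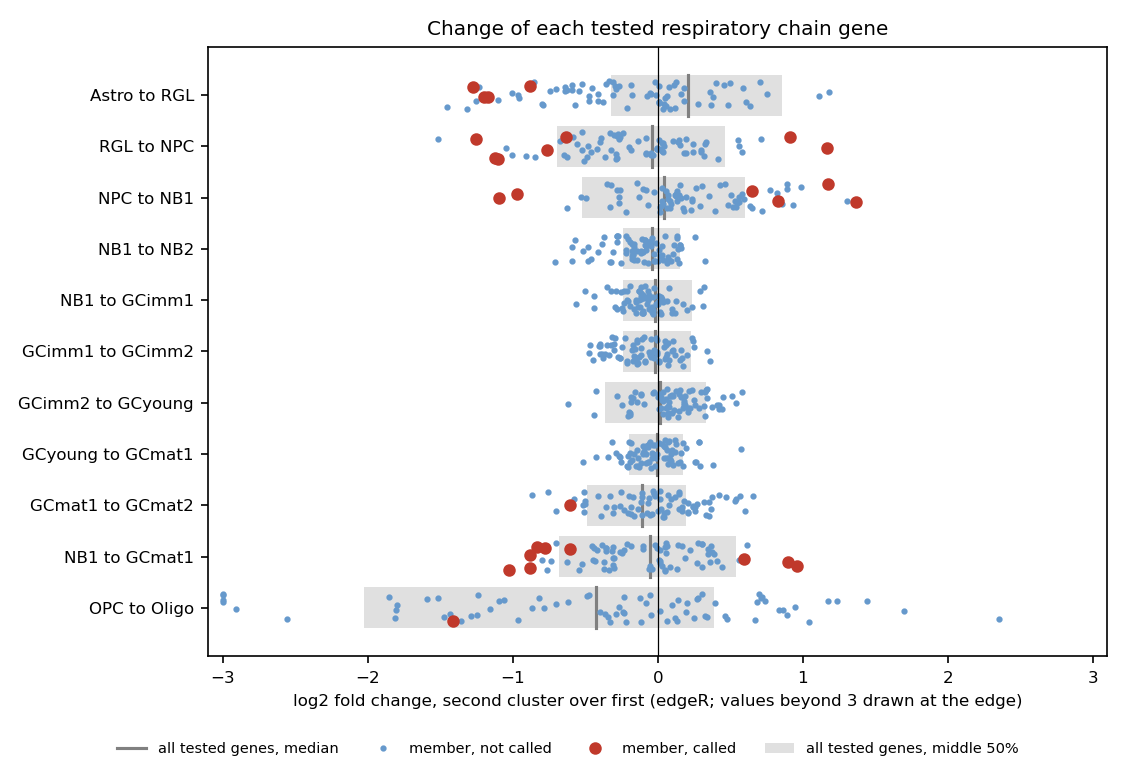
Log2 fold change of each of the 78 tested respiratory chain genes in 11 comparisons of clusters, second cluster over first, from edgeR. Blue points were not called and red points were called (at least 1.5-fold, adjusted p at most 0.05), and grey bars and ticks give the middle 50% and the median of all 11548 genes. Red points are absent from NB1 to NB2 and from the 4 steps that link NB1 to GCmat1, where the points cluster near 0.

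In complex I, Ndufs3, described below with Atp5l, was the 1 core gene of the catalytic arm called from NB1 to GCmat1. Ndufs1, the large iron-sulfur subunit, had 86.9 CPM in w1, 99.6 in w2 and 108 in w4 in NB1, against 115 in w1, 73.5 in w4 and 73.5 in w8 in GCmat1. Its change of 0.37 ± 0.20 (log2, SE) did not pass the test (edgeR adjusted p = 0.12), and the 2 groups overlap. Ndufv1, which binds NADH, changed by 0.03 ± 0.28. Ndufs7, the core subunit that carries the iron-sulfur cluster nearest to ubiquinone, fell by 1.11 from RGL to NPC on the log2 scale (SE 0.42, edgeR adjusted p = 0.0343). It had 2.00, 24.6 and 26.2 CPM in the w1, w2 and w4 sums of NPC and 15.7, 29.6, 29.4 and 19.1 CPM in RGL, so the ranges overlap and the w1 sum stands apart. The call was lost without w1, without w4, with DESeq2 and in 7 of 13 alternatives in all. Ndufv2, another iron-sulfur subunit of that arm, had 99.6, 107 and 108 CPM in Astro and 51.8 to 70.1 CPM in RGL, with no overlap. It fell by 0.88 (SE 0.30, edgeR adjusted p = 0.0425), a call that 9 of 12 alternatives did not keep.

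From NB1 to GCmat1 9 of the 78 genes tested were called (11.5%, against 42.5% of all genes). Accessory subunits of complex I were 5 of these 9, and complex I subunits are 35 of the 85 genes. Ndufa10, a matrix-side accessory subunit with a nucleoside kinase fold, lies on chromosome 1 at 92439010 to 92473860 (GRCm38, minus strand). It had 35.4 CPM in w1, 51.1 in w2 and 33.6 in w4 in NB1, and 44.8 in w1, 61.8 in w4 and 47.9 in w8 in GCmat1. Both libraries that held the pair were higher in GCmat1, and the ranges of the groups overlap. The gene rose by 0.96 (SE 0.21, edgeR adjusted p = 0.000146), and the call was lost only with library totals as the scale among 13 alternatives.

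In the other direction, Ndufa7, an accessory subunit of the matrix arm, had 27.2, 35.0 and 33.6 CPM in NB1 and 6.404, 15.0 and 10.9 CPM in GCmat1, where the w1 sum is 17 nuclei and its value 1 UMI. The groups do not overlap, and the gene fell by 0.88 (SE 0.26, edgeR adjusted p = 0.00463). Ndufb7, a subunit on the outer face of the membrane arm, had 13.04, 18.6 and 26.9 CPM in NB1 and 6.404 (again 1 UMI), 8.04 and 5.09 CPM in GCmat1. It fell by 1.03 (SE 0.40, edgeR adjusted p = 0.0283). Ndufa7 and Ndufb7 were no longer called without w4 or without w8, nor Ndufa7 after thinning each nucleus to 2000 UMIs, nor Ndufb7 with DESeq2. Ndufc2, a small membrane arm subunit, had the widest range over the path among the 47 genes with a mean of at least 20 CPM, from 69.8 CPM in RGL to 10.8 CPM in GCmat1, and fell by 0.78 from NB1 to GCmat1 (SE 0.26, edgeR adjusted p = 0.0114), a call lost without w2, without w8 and after thinning. Ndufa11, named after its values were seen, fell by 0.83 on the TMM scale (SE 0.32, edgeR adjusted p = 0.0314) although its CPM was lower in GCmat1 in only 1 of the 2 libraries. That call was lost with DESeq2, with no library term, without w4 and without w8, and the change came as near to 0 as -0.013.

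At the entry into the cell cycle, Ndufa6, a matrix-side accessory subunit, had 28.7, 49.3, 50.1 and 35.1 CPM in the w1, w2, w4 and w8 sums of RGL and 22.0, 21.6 and 0 CPM in NPC. The ranges do not overlap, and it fell by 1.26 (SE 0.35, edgeR adjusted p = 0.00374). The call was lost without w2 and after thinning. In w4 NPC is a sum of 22 nuclei with 226 UMIs of the 85 genes in all, so a 0 there is a shallow reading.

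Among the complex I assembly factors, Ndufaf2, which binds a late intermediate of the complex, peaked in dividing progenitors. It spans 155909 bases on chromosome 13, from 108002715 to 108158623 (GRCm38, minus strand). NPC had 82.2 CPM in w1, 80.1 in w2 and 52.4 in w4, while RGL had 25.2, 27.2, 33.9 and 41.4 CPM and NB1 29.1, 33.5 and 31.4 CPM. In plain CPM all NPC values lay above all RGL and NB1 values, while on the TMM scale those of RGL and NPC overlap. The w4 value of NPC is only 4 UMIs. Ndufaf2 rose by 1.17 from RGL to NPC (SE 0.28, edgeR adjusted p = 0.000628) and fell by 1.09 from NPC to NB1 (SE 0.27, edgeR adjusted p = 0.000988). Both calls were lost after thinning and without w1, which holds 112 of the 209 NPC nuclei.

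Ndufaf7, a methyltransferase needed to assemble complex I, went the other way. It had 53.1, 78.5, 68.5 and 89.2 CPM in RGL, 30.1, 70.9 and 52.4 CPM in NPC and 64.1, 77.5 and 85.1 CPM in NB1. Within each of w1, w2 and w4 NPC was the lowest of the 3, although the ranges overlap. It fell by 0.76 from RGL to NPC (SE 0.29, edgeR adjusted p = 0.0372) and rose by 0.83 from NPC to NB1 (SE 0.29, edgeR adjusted p = 0.0210). Neither call was kept with DESeq2, with library totals as the scale, after thinning or without w1, and the first was also lost without w4.

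Complex II, succinate dehydrogenase, gave 0 calls in the 11 comparisons. Sdha, its flavoprotein subunit, had 1 of the 5 narrowest ranges over the path among those 47 genes, from 84.3 CPM in RGL to 56.8 CPM in GCmat1. In NB1 it had 68.2, 72.7 and 73.9 CPM, and in GCmat1 51.2, 61.3 and 56.2 CPM. On the TMM scale the change was 0.31 ± 0.19 (log2, SE; edgeR adjusted p = 0.19). Sdhb, the iron-sulfur subunit, and the membrane anchors Sdhc and Sdhd changed by 0.28 ± 0.24, 0.02 ± 0.26 and -0.02 ± 0.45. Sdhd was the sparsest of the 4, with UMIs in 4.41% of nuclei.

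In complex III, Uqcrc2, a core protein of the matrix side, was the second narrowest of them, with 51.8 CPM in NB1 at its highest and 39.7 CPM in GCmat2 at its lowest. Its partner Uqcrc1 fell by 1.20 from Astro to RGL (SE 0.38, edgeR adjusted p = 0.0290). The Astro sums were 107 CPM in w1, 97.9 in w2 and 10.8 in w4 (1 UMI in 24 nuclei), against 25.2 to 44.6 CPM in RGL. The w4 order is opposite to that of w1 and w2 but is a shallow reading. The call was lost in 6 of 12 alternatives, among them without w1 and without w2. Uqcrfs1, the Rieske iron-sulfur protein, changed by -0.44 ± 0.37 from NB1 to GCmat1 (edgeR adjusted p = 0.35). Uqcrh, the hinge protein that touches cytochrome c1, was among the 5 widest of the 47, from 53.7 CPM in Astro to 11.5 CPM in GCmat2, yet its change of -0.45 ± 0.27 from NB1 to GCmat1 did not pass (edgeR adjusted p = 0.17).

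In complex IV the lower values in mature neurons were led by Ndufa4. It lies on chromosome 6 at 11900292 to 11907497 (GRCm38, minus strand). NB1 had 47.3 CPM in w1, 66.0 in w2 and 80.7 in w4, and GCmat1 had 6.404 in w1 (1 UMI), 28.01 in w4 and 13.9 in w8. The groups do not overlap, and Ndufa4 fell by 0.88 (SE 0.23, edgeR adjusted p = 0.00139), a call that was lost only without w4. Cox8a had 55.5, 78.3 and 94.1 CPM in NB1 and 38.4, 39.9 and 20.6 CPM in GCmat1, and fell by 0.61 (SE 0.21, edgeR adjusted p = 0.0153), which 5 of 13 alternatives did not keep.

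Cox5a and Cox5b, the subunits that face the matrix, changed by -0.10 ± 0.23 and -0.30 ± 0.32 from NB1 to GCmat1 (edgeR adjusted p = 0.75 and 0.47). Cox7b, a small membrane subunit named after its values were seen, rose by 0.65 from NPC to NB1 (SE 0.25, edgeR adjusted p = 0.0416). It was kept by 5 of 13 alternatives.

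Complex IV also has subunits with tissue-specific copies, and the common form had more UMIs in each family that could be compared. Cox6a1 had 2464 UMIs against 15 of the heart and muscle form Cox6a2, Cox7a2 had 3002 against 46 of Cox7a1, and Cox8a had 4246 against 3 of Cox8b and 1 of Cox8c. Ndufa4 had 3239 UMIs against 12 of Ndufa4l2, a copy induced by low oxygen. Cox4i2, the low-oxygen form of Cox4, had 35 UMIs, while Cox4i1 is listed at 0 and all of its exon bases lie in another counted gene, so the pair cannot be compared. The same holds for Ndufa13. Cox7a2l, a factor of respiratory supercomplexes, had 14.3, 18.8 and 29.1 CPM in NB1 and 0, 19.4 and 18.2 CPM in GCmat1, a change of 0.35 ± 0.30 that did not pass (edgeR adjusted p = 0.36).

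Cox7b had 3811 UMIs against 430 of its copy Cox7b2, which was found in 2.37% of nuclei. Pooled over libraries Cox7b2 had 4.92 CPM in RGL (95% Poisson interval 3.32 to 7.02), 2.02 CPM in NB1 (1.27 to 3.06) and 6.74 CPM in GCmat1 (5.83 to 7.75), and like Cox6b2 it was too sparse to be tested.

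Cox6b2, a copy of Cox6b best known from testis, was detected at the start of the path. It lies on chromosome 7 at 4751792 to 4753094 (GRCm38, minus strand) and had 269 UMIs in all. RGL had 14.8, 21.1, 11.0 and 19.1 CPM in the 4 libraries, and NPC had 12.02, 12.3 and 13.1 CPM in w1, w2 and w4. All of these lay above the values of NB1, which were 4.40, 3.18 and 6.72 CPM. The NPC values are 6, 4 and 1 UMIs and the w4 value of NB1 is 3, so the order of NPC and NB1 in w4 is a shallow reading. In GCimm1 it had 1.53, 6.03 and 7.39 CPM. From there on almost nothing was counted: pooled over libraries, GCimm2 had 6 UMIs, GCyoung 2, GCmat1 2 in 3347 nuclei and GCmat2 0. In GCmat2 a floor set at 3 UMIs is 1.92 CPM. The pooled level was 16.4 CPM in RGL (95% Poisson interval 13.3 to 19.9) and 0.0688 CPM in GCmat1 (0.00833 to 0.248), intervals that cover counting error only. The gene was too sparse for the filter on low counts and was not tested. Its partner Cox6b1 had 29.2, 56.0 and 42.6 CPM in NB1 and 19.2, 21.1 and 13.9 CPM in GCmat1, with a change of -0.46 ± 0.23 (edgeR adjusted p = 0.10).

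In complex V, Atp5o, which encodes the peripheral stalk subunit that holds the catalytic head, was the most abundant gene of the chain and the one with the firmest differences. It had 21409 UMIs, was detected in 70.5% of nuclei and reached 121 CPM per kb of exon as a mean over the path clusters (reads in introns count as well), followed by Cox8a with 91.2 and Cox7c with 60.6. Astro had 352 CPM in w1, 400 in w2 and 217 in w4. RGL had 168, 156, 115 and 163 CPM, and NPC had 146, 136 and 105 CPM. NB1 then had 327, 287 and 246 CPM.

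Atp5o fell by 1.17 from Astro to RGL (SE 0.20, edgeR adjusted p = 1.17e-05) and rose by 1.37 from NPC to NB1 (SE 0.19, edgeR adjusted p = 5.53e-08), and in both comparisons the groups do not overlap. These were the only 2 of the 28 calls that every alternative kept. It later fell by 0.61 from GCmat1 to GCmat2 (SE 0.19, edgeR adjusted p = 0.0397), from 184 to 122 CPM in w4 and from 200 to 136 CPM in w8, which 9 of 13 alternatives did not keep. OPC had the low level of 99.7, 82.7, 87.7 and 55.7 CPM. The counted gene model lies on chromosome 16 at 91925214 to 91931687 (GRCm38, minus strand). GENCODE M21 holds another, longer model named Atp5o that overlaps it and was not among the counted features, so the absolute level is uncertain.

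The c subunit of the rotor ring is made from 3 genes, Atp5g1, Atp5g2 and Atp5g3, which encode the same mature protein. Atp5g2 had 50.1 CPM in w1, 52.4 in w2 and 52.4 in w4 in NPC, against 22.6, 19.7, 21.3 and 38.2 CPM in RGL and 22.6, 22.5 and 17.9 CPM in NB1. In plain CPM NPC lay above both without overlap, while on the TMM scale it overlaps RGL. The w4 value of NPC is only 4 UMIs and the w8 value of RGL is 12. Atp5g2 rose by 0.91 from RGL to NPC (SE 0.30, edgeR adjusted p = 0.0153) and fell by 0.97 from NPC to NB1 (SE 0.30, edgeR adjusted p = 0.00834). Both calls were lost without w1, without w2 and after thinning.

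Atp5g1 had 10.02, 21.6 and 0 CPM in NPC and 19.6, 30.3 and 42.6 CPM in NB1, and rose by 1.18 (SE 0.42, edgeR adjusted p = 0.0262), a call that 5 of 12 alternatives kept and that was lost without w1. Atp5g3 was called in none of these steps by edgeR and was among the 5 widest of the 47 genes over the path, from 35.8 CPM in Astro to 8.35 CPM in GCmat1. Its change of -0.63 ± 0.31 from NB1 to GCmat1 did not pass (edgeR adjusted p = 0.093).

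The genes of the catalytic head of complex V named here did not pass the test from NB1 to GCmat1. Atp5b, the catalytic beta subunit, changed by 0.01 ± 0.20 from NB1 to GCmat1, Atp5c1, the central shaft, by 0.05 ± 0.22 and Atp5a1, the alpha subunit, by 0.36 ± 0.20 (edgeR adjusted p = 0.97, 0.87 and 0.13). Atp5a1 fell by 0.63 from RGL to NPC (SE 0.24, edgeR adjusted p = 0.0392), with 70.5, 117, 81.7 and 73.3 CPM in RGL and 52.1, 86.3 and 65.5 CPM in NPC, and 5 of 13 alternatives kept the call. Atp5md, a small subunit linked to dimers of the enzyme, had 61.3, 71.2 and 54.2 CPM in Astro and 15.9 to 32.9 CPM in RGL and fell by 1.28 (SE 0.42, edgeR adjusted p = 0.0342). It was no longer called when any 1 of the 4 libraries was left out, with no filter or with no library term. Atp5l and Ndufs3, named after their values were seen, rose by 0.90 (SE 0.32, edgeR adjusted p = 0.0168) and 0.60 (SE 0.22, edgeR adjusted p = 0.0190) from NB1 to GCmat1 on the TMM scale, while their plain CPM was lower in GCmat1 in both libraries. The Atp5l call was lost in 5 of 12 alternatives and the Ndufs3 call in 8 of 13, both with DESeq2, without w2, without w4 and without w8.

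**Figure D3:**
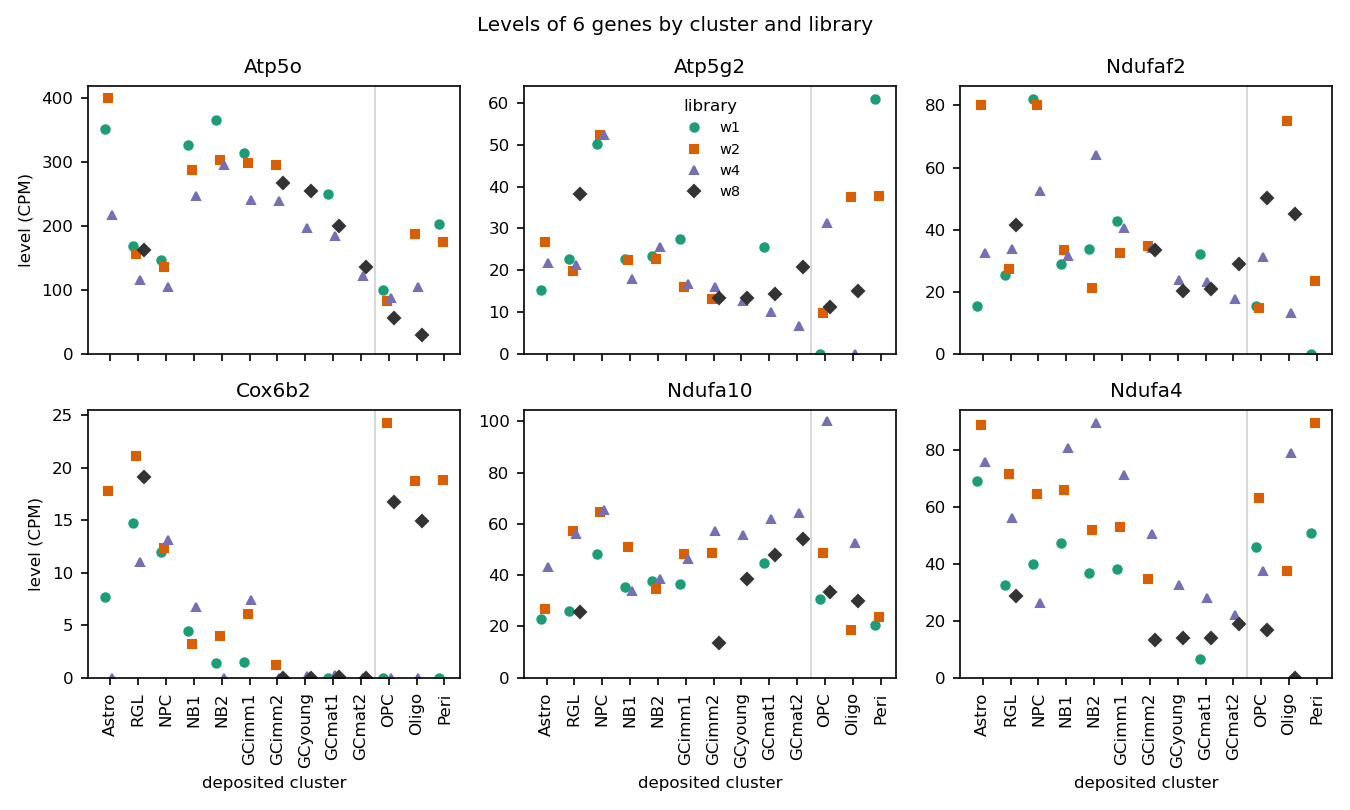
Levels (CPM) of Atp5o, Atp5g2, Ndufaf2, Cox6b2, Ndufa10 and Ndufa4 in the 13 deposited clusters, with a point for each library that has at least 10 nuclei there. Atp5g2 and Ndufaf2 are highest in NPC on the neuronal path, Atp5o is lower in RGL and NPC than in Astro and NB1 and low again in GCmat2, and Cox6b2 is near 0 from GCimm2 to GCmat2.

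Over the 10 path clusters, 47 genes had a mean of at least 20 CPM. Their median range between the highest and the lowest cluster was 2.38-fold (1.25 on the log2 scale), against 1.83 on the log2 scale for the 7346 features at or above that mean. The highest value lay in Astro for 19 of the 47, in NPC for 11, in GCimm1 for 6 and in RGL for 5. The lowest lay in GCmat1 for 29 and in GCmat2 for 10. Astro holds only 67 nuclei, so its values carry the largest counting error of the path, and GCmat1 is 2927 of 3347 nuclei from w8, the library with the lowest levels. The narrowest were Ndufs3 (1.24-fold), Uqcrc2 (1.30-fold), Atp5pb (1.46-fold), Sdha (1.48-fold) and Atp5a1 (1.58-fold). The widest were Ndufc2 (6.49-fold), Ndufa4 (4.98-fold), Uqcrh (4.65-fold), Atp5g3 (4.29-fold) and Cox8a (4.13-fold).

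**Figure D4:**
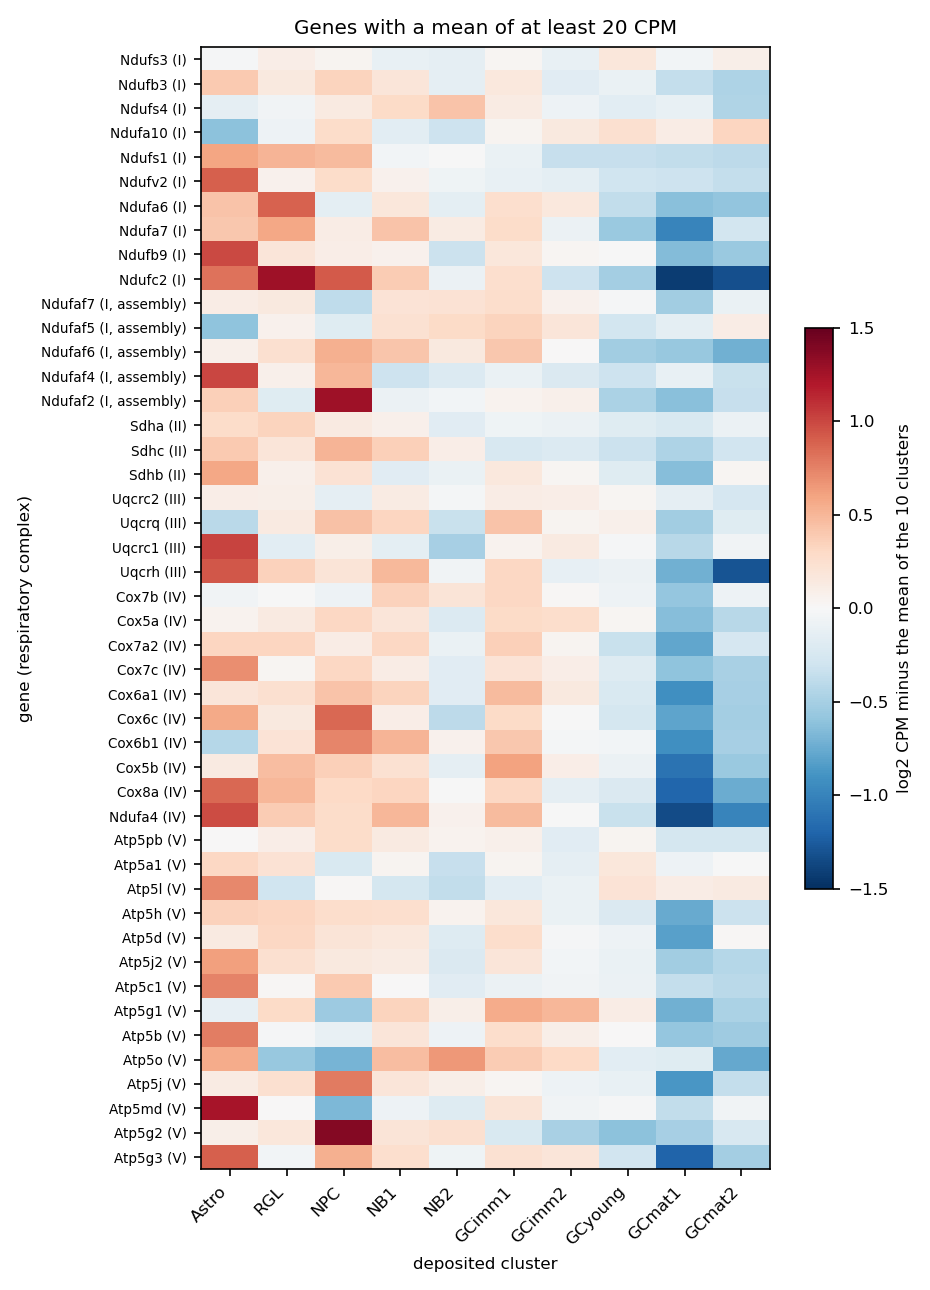
Levels of 46 of the 47 respiratory chain genes with a mean of at least 20 CPM over 10 clusters, pooled over libraries, as log2 CPM minus the mean of each gene over the clusters. Rows are ordered by complex and, within it, from the narrowest to the widest range. Most rows are blue in GCmat1 and GCmat2, while Ndufs3, Uqcrc2 and Atp5pb are pale throughout.

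In the clusters off the neuronal path the summed level was 2069 ± 416 CPM in OPC (SD, n = 4), 2125 ± 552 CPM in Oligo (n = 3) and 2793 ± 410 CPM in Peri (n = 2). The ratio of Oligo to OPC was 0.923 in w2, 1.08 in w4 and 0.939 in w8, and all 3 counting intervals include 1. Oligo is 39 nuclei in these sums, and the median standard error from OPC to Oligo was 0.87 on the log2 scale. Only a large change could therefore be detected there. Ndufs4, an accessory subunit whose loss causes a Leigh-like disease in mice, had 184, 92.4, 100 and 111 CPM in OPC and 75.02, 39.4 and 44.9 CPM in Oligo, which are 4, 3 and 3 UMIs. The groups do not overlap, and it fell by 1.42 (SE 0.45, edgeR adjusted p = 0.0181), a call lost with DESeq2, without w4 and without w8.

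Respiratory chain promoters are known to carry sites for NRF1, a factor that activates nuclear genes of mitochondria. RefSeq sequence (GRCm38.p6) of the 250 bases before the start site was found for 73 of the 85 genes and searched on both strands. The NRF1 motif, GCGC followed by A, any base and GCGC, was present in 14 of 73 (19.2%), against 5.84% of 17492 protein-coding genes. The ETS motif CCGGAAG was present in 14 of 73 (19.2%, against 10.2%), the cAMP response element TGACGTCA in 5.48% (against 2.20%), the GC box GGGCGG in 41.1% (against 45.8%), CCAAT in 43.8% (against 39.5%) and the YY1 motif AAGATGGC in 1.37% (against 1.77%). The GC-rich NRF1 motif can overlap a GC box, and a match is a description of letters and not of binding. The 5 genes whose match reads the same on both strands and 2 core genes, Sdha and Atp5c1, are shown with the match in capitals, each read 5′ to 3′ on the strand of the gene.
Atp5g2, chr15:102671070-102671099, minus strand: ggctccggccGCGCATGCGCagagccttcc
Atp5k, chr5:108434430-108434459, minus strand: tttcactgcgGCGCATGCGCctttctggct
Cox6a1, chr5:115349101-115349130, minus strand: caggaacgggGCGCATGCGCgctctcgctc
Ndufa11, chr17:56717692-56717721, plus strand: cctgcactgcGCGCATGCGCgcacgccttg
Ndufaf4, chr4:24897960-24897989, plus strand: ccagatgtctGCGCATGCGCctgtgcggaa
Sdha, chr13:74350319-74350348, minus strand: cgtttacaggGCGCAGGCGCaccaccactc
Atp5c1, chr2:10080433-10080459, minus strand: ctgagctcccGCGCACGCGCactgagt

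The lowest pooled level lay in GCmat1 or GCmat2 for 12 of the 14 genes with this match and for 59 of all 73. The cluster with the highest level differed among them. Atp5g2 was highest in NPC (4.00-fold over its lowest cluster), Cox6a1 in GCimm1 (2.64-fold), Ndufaf4 in Astro (2.52-fold) and Sdha in RGL (1.48-fold). The only match of Atp5g2 lies 42 bases before its start site and that of Atp5c1 17 bases. Sdha has 3 matches and Cox6a1 2, of which the one farthest from the start site is shown, 98 bases before it in Sdha.

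Other genes of energy metabolism were counted in the same way from NB1 to GCmat1. Of 17 tested regulators of mitochondrial biogenesis 3 rose and 2 fell (29.4% called, against 42.5% of all genes). A negative change was found in 11 of the 17, with a median of -0.22 against -0.05 for all genes. Ppara fell by 2.42 and Tfb2m by 0.84, and Pprc1 rose by 1.11. Ppargc1a, which encodes the coactivator PGC-1 alpha, had 7.39, 7.83 and 2.24 CPM in the w1, w2 and w4 sums of NB1 and 44.8, 31.9 and 45.7 CPM in the w1, w4 and w8 sums of GCmat1. It rose by 3.08 (log2, SE 0.27, edgeR adjusted p = 1.80e-14). Ppargc1b, its close relative, had 5.19, 9.78 and 4.48 CPM in NB1 and 70.4, 58.5 and 52.6 CPM in GCmat1 and rose by 3.76 (SE 0.31, edgeR adjusted p = 5.43e-15). In both genes all GCmat1 values lay above all NB1 values. Over the same stretch 3 of the 78 respiratory chain genes rose and 6 fell (11.5% called, against 42.5% of all genes).

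Ppargc1a was highest of all in Astro, with 276, 285 and 336 CPM against 34.6 to 58.7 CPM in RGL, and fell by 2.66 from Astro to RGL (SE 0.23, edgeR adjusted p = 1.77e-13). From RGL to NPC it fell by 3.81 (SE 0.49, edgeR adjusted p = 5.65e-09).

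Of 19 tricarboxylic acid cycle genes tested, 5 rose and 2 fell from NB1 to GCmat1 (36.8% called, against 42.5% of all genes). Suclg2, Pdhx, Ogdh, Idh3b and Dlat rose by 1.22, 1.09, 0.99, 0.87 and 0.62, and Pcx fell by 0.61. A positive change was found in 16 of the 19, with a median of 0.33 against -0.05 for all genes. Idh2, the mitochondrial NADP-dependent isocitrate dehydrogenase, had 69.1, 84.6 and 53.8 CPM in NB1 and 6.404 (1 UMI), 4.99 and 7.66 CPM in GCmat1, with no overlap. It fell by 2.66 (SE 0.24, edgeR adjusted p = 3.66e-14), and its CPM fell at GCimm1 to GCimm2 and at GCimm2 to GCyoung, which both passed (edgeR adjusted p = 2.98e-06 and 0.000861). Of 22 glycolysis genes 7 rose and 3 fell (45.5%), among them the neuronal enolase Eno2 with an increase of 2.05 (SE 0.26, edgeR adjusted p = 2.15e-09). Of 29 assembly factors outside the naming rule 6 rose and 1 fell (24.1%), of 56 mitochondrial ribosomal proteins 8 rose and 3 fell (19.6%), of 19 cytochrome c and electron carrier genes 2 rose and 0 fell (10.5%), and of 3 mitochondrially encoded subunits tested 0 were called. Of 74 cytosolic ribosomal protein genes 0 rose and 28 fell (37.8%). Apart from glycolysis these shares lie below that of all genes.

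**Figure D5:**
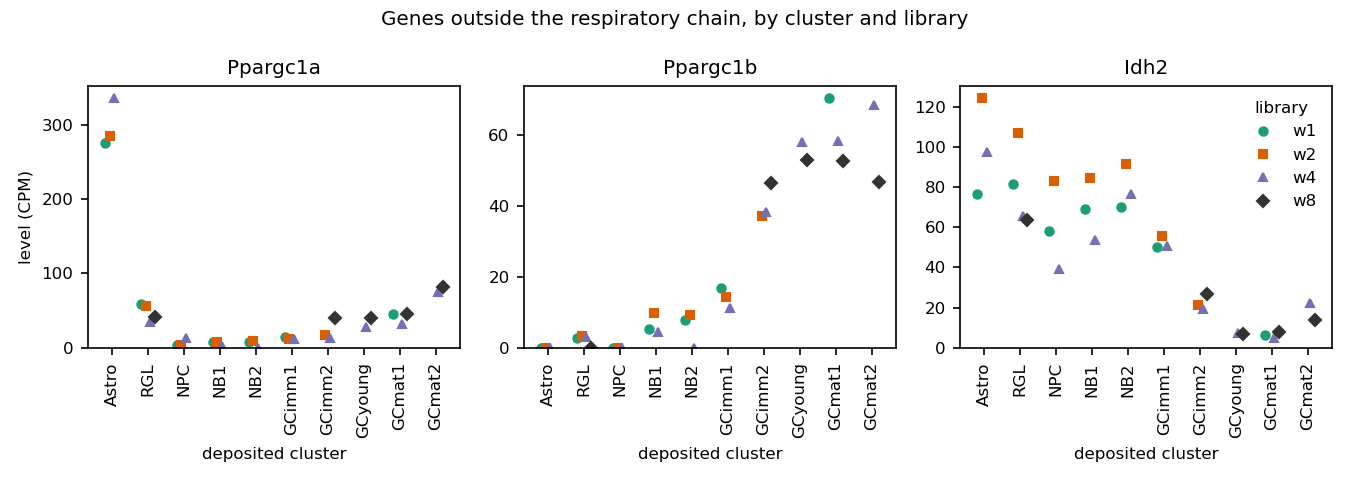
Levels (CPM) of Ppargc1a, Ppargc1b and Idh2 in the 10 clusters of the neuronal path and astrocytes, with a point for each library that has at least 10 nuclei there. Ppargc1b is at most 9.78 CPM in NB1 and at least 52.6 CPM in GCmat1, Ppargc1a is highest in Astro, and Idh2 is at most 7.66 CPM in GCmat1.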

How the data were processed

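The genes and the comparison lists were chosen with earlier results of these data known. The authors counted UMIs with STARsolo 2.7.4a on mm10 over exons and introns, without multi-mapped reads, and deposited whole counts per gene and nucleus. A second deposited table holds the authors' log2 expression (counts over scran size factors, 1 added) with the cluster and library of each nucleus, after they had removed low-quality nuclei, doublets called by scDblFinder and 2 groups of w4 nuclei. No doublet caller was run again. The table gave the nuclei, clusters and gene names, and 1 alternative used its values. Table genes were matched to counted features by symbol (81), Ensembl ID (2) or their counts (2). Positions are from GENCODE M21 (GRCm38).

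Counts were summed per cluster and library for at least 10 nuclei. These 38 sums entered a fit with edgeR 4.0.16 in R 4.3.3 (filterByExpr, TMM, glmQLFit, glmQLFTest) with cluster and library as terms, 22 residual degrees of freedom and a common dispersion of 0.0154. Each library is a pool of 4 mice, so the spread between sums is not that between animals. The genes named are, per comparison, the 3 largest increases and decreases among calls with 50 or more UMIs and the same direction of CPM in every library with both clusters; preset core subunits and copy families; and the 5 widest and 5 narrowest ranges. Others are said to be named after their values were seen. Some items, among them 1 preset core subunit, are not reported here. The test was checked on simulated counts for each comparison, drawn with the common dispersion for all genes and no difference in composition between libraries. The test called 7 of 95 true 2-fold changes from OPC to Oligo, 13 of 95 from Astro to RGL and 36 of 98 from RGL to NPC. From NB1 to GCmat1 it called 49 of 106, and from NB1 to GCimm1 75 of 94. It called 59 of 95 from NB1 to NB2 and 57 of 84 from GCimm1 to GCimm2. From GCimm2 to GCyoung it called 56 of 96, and from GCyoung to GCmat1 59 of 93. Of true 4-fold changes it called 30 of 99 from OPC to Oligo and 90 of 96 from NB1 to GCimm1. A 2-fold change could thus go uncalled in these comparisons. The other settings were RLE factors, DESeq2 1.42.0, all genes without a filter, no term for library, at least 25 nuclei, trajectory clusters and astrocytes only, adjusted p alone, thinning to 2000 UMIs, the mean of log2 expression per nucleus and each library left out. Library totals alone was added after the data had been seen.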

Additional observations from a re-analysis of the deposited data

Results flagged for a closer look

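The summed level of the complex I assembly factors in RGL was 164 CPM in w1 and stood apart from the other 3 libraries, which lay between 226 and 233 CPM. It was the only sum that stood apart among 14 groups of 4 libraries, and chance alone would set apart about 1 in 20 such groups.

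In plain CPM the direction of the summed respiratory chain level differed between libraries in 4 comparisons, and these differences between libraries were not tested. The ratio of NPC to RGL was 1.10 in w1, 1.06 in w2 and 0.969 in w4. The ratio of NB1 to NPC was 1.02 in w1, 0.944 in w2 and 1.17 in w4. The ratio of GCmat2 to GCmat1 was 0.994 in w4 and 1.01 in w8, and that of Oligo to OPC was 0.923 in w2, 1.08 in w4 and 0.939 in w8. On the TMM scale the libraries shared a direction in each of these comparisons. In the same order of libraries, the TMM ratios were 0.906, 0.865 and 0.760 for NPC to RGL and 1.19, 1.12 and 1.43 for NB1 to NPC. They were 0.919 and 0.961 for GCmat2 to GCmat1, and 0.763, 0.975 and 0.761 for Oligo to OPC.

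Some features of the count files carry a name that meets the rule but have no row under that name in the expression table, and they entered no comparison. Atp5s had 1978 UMIs and Atp5sl 1035, and both are names that are no longer in use (Dmac2l and Dmac2). Cox7a1 had 46 UMIs, Cox4i2 35, Cox6a2 15, Ndufa4l2 12 and the pseudogenes Atp5l-ps2 and Atp5l2-ps 5 each.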

How the results depend on the processing

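No pairing of samples across weeks was possible because each week is 1 library, so weeks share only 1 replicate number. Clusters were blocked by library, as the library is a term of the fit. Of the 28 calls 0 changed direction under any alternative, 2 held under all (both Atp5o) and 10 under at least 10. The alternatives include adjusted p alone, which drops the fold threshold and can lose no call. The most were lost without w4 (17), after thinning to 2000 UMIs (16), without w1 or w2 (14 each), with DESeq2 or library totals (12 each) and without w8 (11). Without w1, w2, w4 or w8, 81, 80, 79 and 81 respiratory chain genes were tested among 12479, 12397, 11976 and 12688. In that order, calls from Astro to RGL were 1, 1, 2 and 2 (828, 874, 896 and 1363 of all genes). From RGL to NPC they were 1, 6, 3 and 8 (2697, 2828, 3324 and 3731). From NPC to NB1 they were 1, 4, 4 and 6 (2534, 2809, 3316 and 3722). From GCimm1 to GCimm2 they were 1, 0, 0 and 1 (1166, 430, 854 and 1160). From GCmat1 to GCmat2 1 gene was called without w1 and 0 without w2 (1072 and 867 of all genes). From NB1 to GCmat1 calls were 10, 6, 4 and 2 (4778, 4553, 3486 and 4491). From OPC to Oligo they were 2, 1, 1 and 2 (2253, 1840, 1761 and 1700). Where leaving out a library left a cluster with 1 sum, that sum was taken to vary like the rest. Median log2 changes then ranged from -0.24 to -0.037 for Astro to RGL, from -0.057 to 0.10 for GCyoung to GCmat1 and from -0.68 to -0.25 for OPC to Oligo. The median for NB1 to GCmat1 was -0.12 without w1 and 0.0010 without w4, and that for NPC to NB1 was 0.29 without w1 and 0.25 without w2.

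Calls here are of 78 genes tested, or 85 with no filter, 84 with at least 25 nuclei, 83 with the trajectory only and 50 thinned. For Astro to RGL, calls were 11 with DESeq2, 1 with no filter or no library term, and 2 with the trajectory only or thinned. Among all genes these settings called 1180 of 11548, 1356 of 26883, 1184 of 11548, 1295 of 13513 and 703 of 8561. The median was -0.36 with RLE factors, -0.37 with DESeq2, -0.019 with no filter and -0.018 as the mean of log2 expression per nucleus. For RGL to NPC, calls were 4 with library totals or DESeq2 and 1 thinned, and the median was 0.10 with library totals, -0.32 with no filter and -0.017 per nucleus. For NPC to NB1, calls were 3 with DESeq2 and 2 thinned, and the median was -0.081 with library totals and 0.019 per nucleus. Of all 8561 genes tested when thinned, 2381 were called for RGL to NPC and 2527 for NPC to NB1. With library totals NB1 to GCimm1 and GCimm2 to GCyoung had 1 call each (1603 and 2651 of all 11548 genes). Medians with library totals were -0.27 for GCimm1 to GCimm2 and -0.14 for GCimm2 to GCyoung. GCimm2 to GCyoung also had 1 with adjusted p alone and 1 thinned (2416 of 11548 and 1571 of 8561 among all genes). GCimm1 to GCimm2 had 1 with no filter, with at least 25 nuclei and with the trajectory only. All genes called there were 1325 of 26883, 1346 of 14728 and 1274 of 13513. GCmat1 to GCmat2 had 0 with library totals, RLE factors, DESeq2, no filter, no library term and thinned. In that order 896, 911, 617, 968, 658 and 480 of all genes were called. NB1 to GCmat1 had 38 with library totals (median -0.64), 5 with DESeq2, 15 with no library term and 3 of 50 thinned. Among all genes these settings called 6613, 4474 and 5192 of 11548 and, thinned, 3436 of 8561. OPC to Oligo had 3 with library totals and 2 with RLE factors or DESeq2 (2222, 2227 and 2099 of all 11548 genes). Its median was 0.0028 with library totals, -0.090 with RLE factors, -0.087 with DESeq2, -0.53 thinned and 0.0053 per nucleus. Apart from fewer UMIs when thinned and the other genes and sums that a filter sets, the cause was not tested.

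Summed UMIs per nucleus, another scale than CPM, averaged 17.4 in Astro, 11.5 in RGL, 12.2 in NPC, 12.3 in NB1, 14.2 in NB2, 13.6 in GCimm1, 15.9 in GCimm2, 16.2 in GCyoung, 17.7 in GCmat1, 14.8 in GCmat2, 10.7 in OPC, 10.7 in Oligo and 15.0 in Peri. Without the 3 genes with the most UMIs, which hold 18.7% of the total, the summed level was 2883 CPM in Astro, 2571 in NB1, 2364 in NB2, 2234 in GCimm1, 1864 in GCimm2, 1667 in GCyoung, 1576 in GCmat1 and 1688 in GCmat2, which leaves GCmat1 lowest among these. Depth limits the readings most in Oligo (39 nuclei), Peri (58) and Astro (67).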
